A study of Solanum lycopersicum with 8 samples.

Results

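BAG family molecular chaperone regulators are co-chaperones that hold a BAG domain, which binds the ATPase domain of HSP70 chaperones. LOC101264896 (described as BAG regulator 1), LOC101256235 (BAG regulator 3) and LOC101246459 (BAG regulator 3-like) are 3 of the 29081 genes in the deposited count table of this tomato leaf study, and each is listed with 1 transcript. They were picked by symbol with results of these data known, and which comparison led to the choice is not recorded. Every value of theirs is therefore a description with no test. Another 8 genes carry a BAG family description, and these were tested. They are what that choice left of the family, so their results are not those of a fair sample of it. All 3 members and all 8 other BAG genes passed the filter on low counts; LOC101246459 did so with 2 counts in each of its lowest libraries.

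The study compared tomato (Solanum lycopersicum) leaves given tunicamycin, an antibiotic that stops N-linked glycosylation and so leaves unfolded proteins in the endoplasmic reticulum (ER), with control leaves. The 4 groups were control 2 h, tunicamycin 2 h, control 6 h and tunicamycin 6 h, with 2 biological replicates each, sequenced from total RNA. The cultivar, plant age, tunicamycin dose and what the control leaves received are not stated in the labels. Since these are whole leaves, fewer cells of a type and less RNA per cell cannot be told apart.

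In mammals, BAG proteins speed the release of ADP and of the bound client from HSP70, and so set when a client is let go, refolded or passed to degradation. In Arabidopsis, the members numbered 1 to 4 also carry a ubiquitin-like domain near the BAG domain, and those numbered 5 to 7 carry a calmodulin-binding motif. Arabidopsis BAG7 sits in the ER and takes part in the unfolded protein response, the set of genes and proteins by which cells answer ER stress of the kind tunicamycin causes. The tomato genes are named here by the description in the files, and no function was measured.

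Totals ran from 4689769 to 122784850 counts per library, and each group held a deeper and a shallower library, 5.49 to 9.98 times apart. In the control groups replicate 2 was the deeper one, and in the tunicamycin groups replicate 1. Levels are CPM (counts relative to the library's total, scaled by TMM), log2 fold changes come from edgeR with a standard error, and a transcript was called at an adjusted p under 0.05 over all 34483 transcripts tested. Leaf markers were present: of 23 genes of the Rubisco small subunit and chlorophyll a-b binding proteins, 22 or 23 had counts in each library, and their summed level was 22000 to 46900 CPM. Tunicamycin 6 h replicate 2 held 2.53% ribosomal RNA, against 0.0745% to 0.647% for the other 7 libraries.

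LOC101264896, named for Arabidopsis BAG1, stood lower in tunicamycin than in control leaves at both times. In Arabidopsis, BAG1 works with a cytosolic HSC70 in the disposal of chloroplast precursor proteins that were not imported. At 2 h it was at 85 CPM (418 counts) and 136 CPM (6426 counts) in control replicates 1 and 2, and at 64.1 CPM (2919 counts) and 61.4 CPM (382 counts) in tunicamycin replicates 1 and 2. At 6 h it was at 103 CPM (2043 counts) and 135 CPM (17064 counts) in control, and at 41.2 CPM (4211 counts) and 46.4 CPM (680 counts) in tunicamycin leaves. The tunicamycin libraries thus lay below the control libraries at each time, as for 18.8% of the transcripts tested at 2 h and 12.5% at 6 h, and all 4 lay below all 4, as for 2.83%.

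The 2 tunicamycin libraries of LOC101264896 were close to each other, 1.04-fold apart at 2 h and 1.13-fold at 6 h, while its control libraries were 1.6-fold and 1.31-fold apart. Group means were 110 ± 35.8 CPM (SD, n = 2) in control and 62.8 ± 1.92 CPM in tunicamycin leaves at 2 h, and 119 ± 22.6 and 43.8 ± 3.67 CPM at 6 h. The log2 fold change was -0.82 ± 0.35 at 2 h and -1.44 ± 0.35 at 6 h, the latter a 2.71-fold lower level. Between the deeper libraries alone it was -1.08 and -1.71, and between the shallower alone -0.47 and -1.15. In order of the mean, control 6 h came first and its libraries overlapped those of control 2 h, while tunicamycin 2 h and then tunicamycin 6 h stood apart from the group above them.

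**Figure D1:**
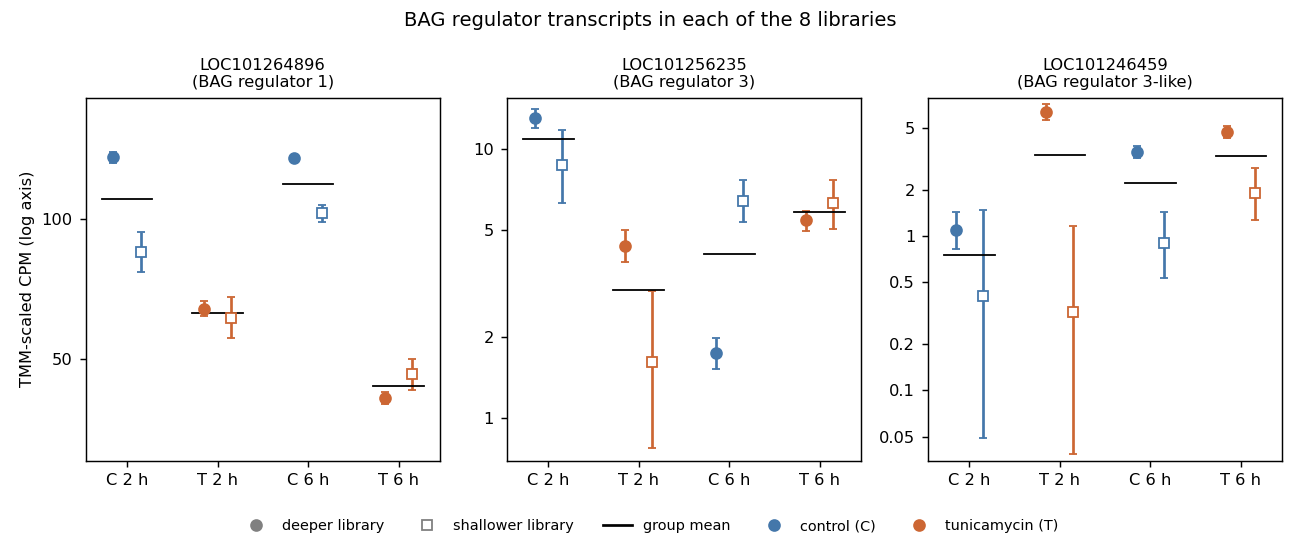
TMM-scaled CPM (log axis, a scale of its own in each panel) of the 3 BAG transcripts in each library, by group; bars on points are exact 95% Poisson intervals for counting error only, and the short black line is the mean of 2 libraries. LOC101264896 was at 41.2 to 64.1 CPM in the tunicamycin libraries and at 85 to 136 CPM in the controls; LOC101256235 was lower with tunicamycin at 2 h and overlapped at 6 h; LOC101246459 was higher in the deeper library of every group.

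Markers of another cell type were lower on median in the same comparisons, with separate sums at 2 h and overlapping sums at 6 h. The 6 phloem genes (sieve element occlusion proteins and SUC2) summed to 116 and 283 CPM in control and to 83.9 and 78 CPM in tunicamycin leaves at 2 h, and to 281 and 145 against 58.2 and 175 CPM at 6 h. All 6 had counts in 7 libraries and 5 did in tunicamycin 2 h replicate 2. None of the 6 was called in edgeR, and their median log2 fold change was -1.24 at 2 h and -0.92 at 6 h, beside 0.02 and 0.04 over all genes. At 2 h 1 of the 6 lay above zero, and at 6 h 0. Markers of dividing cells were also lower on median at 2 h (-0.5, 2 of 7 above zero) but not at 6 h (0.19). The medians of mesophyll and epidermis markers lay above zero at both times. The part of any of these markers in the lower level of LOC101264896 was not tested.

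LOC101256235, described as BAG regulator 3, was at its highest in control leaves at 2 h. There it stood at 8.75 CPM (43 counts) and 13.1 CPM (618 counts), against 4.37 CPM (199 counts) and 1.61 CPM (10 counts) in tunicamycin leaves. The groups did not overlap at 2 h, and the tunicamycin library at 1.61 CPM has a counting interval of 0.771 to 2.96 CPM. At 6 h it stood at 6.44 CPM (128 counts) and 1.74 CPM (220 counts) in control, and at 5.43 CPM (554 counts) and 6.28 CPM (92 counts) in tunicamycin leaves. Here the control libraries lay 3.71-fold apart, on either side of the tunicamycin libraries.

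For LOC101256235 the group means at 2 h were 10.9 ± 3.04 CPM in control leaves and 2.99 ± 1.95 CPM with tunicamycin, and 4.09 ± 3.32 and 5.85 ± 0.605 CPM at 6 h (n = 2 each). The log2 fold change of tunicamycin against control was -1.79 ± 0.61 at 2 h and 0.55 ± 0.58 at 6 h, and the difference between the times was 2.34 ± 0.84. The 2 h value was -1.57 in the deeper pair and -2.41 in the shallower pair, and the 6 h value 1.62 and -0.04. From 2 h to 6 h the level went down in control leaves (log2 -1.47 ± 0.59) and up in tunicamycin leaves (0.87 ± 0.60), with no overlap of libraries in either arm (22.3% of all transcripts lay apart upwards in tunicamycin leaves, and 16.1% downwards in control leaves). Control 2 h was thus apart from tunicamycin 6 h, the next group by mean, while tunicamycin 6 h, control 6 h and tunicamycin 2 h followed with each neighbour overlapping.

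LOC101246459, described as BAG regulator 3-like, was counted at low levels, higher in the deeper library of each group. At 2 h it stood at 0.407 CPM (2 counts) and 1.1 CPM (52 counts) in control, and at 6.35 CPM (289 counts) and 0.322 CPM (2 counts) in tunicamycin leaves. At 6 h it stood at 0.906 CPM (18 counts) and 3.51 CPM (444 counts) in control, and at 4.73 CPM (483 counts) and 1.91 CPM (28 counts) in tunicamycin leaves. The deeper library was the higher of the pair in all 4 groups, which holds for 11.9% of the transcripts tested. The part of depth in these levels was not tested.

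The counting intervals of LOC101246459 at 2 h, 0.0493 to 1.47 CPM in control replicate 1 and 0.0389 to 1.16 CPM in tunicamycin replicate 2, overlapped. A difference between the shallower libraries was not detectable at this depth. Its log2 fold change of tunicamycin against control was 2.05 ± 1.05 at 2 h and 0.58 ± 0.95 at 6 h. The 2 h value was 2.49 for the deeper pair, -0.30 for the shallower pair, and -1.43 without tunicamycin 2 h replicate 1, which holds the 289 counts. The groups overlapped at both times, as did every neighbour in the order tunicamycin 2 h, tunicamycin 6 h, control 6 h and control 2 h (means 3.34 ± 4.26, 3.32 ± 1.99, 2.21 ± 1.84 and 0.753 ± 0.489 CPM).

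**Figure D2:**
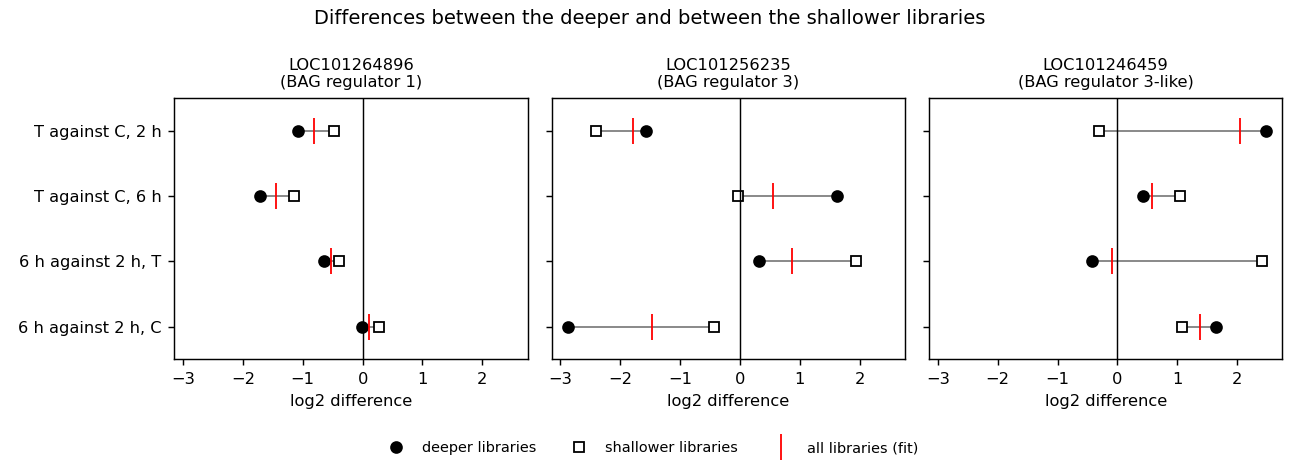
Log2 difference in CPM (prior count 2) for each BAG transcript between the deeper libraries (filled circles) and between the shallower libraries (open squares) of 4 comparisons, with the fitted log2 fold change of all libraries as a red line. For LOC101264896 both depths lay below zero at 2 h and at 6 h, and for LOC101246459 the 2 h points lay at 2.49 and -0.30.

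In edgeR 0.0464% of all transcripts were called at 2 h and 0.322% at 6 h for tunicamycin against control, 0.603% between the times in tunicamycin leaves, 0.27% in control leaves and 0% for the difference between the times, where 761 had an unadjusted p under 0.05 and DESeq2 called 0. No member is among the transcripts called in edgeR, and nothing is read from this, since the members carry no test. Both tunicamycin libraries lay below both control libraries for 2 members at 2 h, beside 18.8% of all transcripts, and for 1 at 6 h, beside 12.5%.

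In the authors' deposited table for 2 h, LOC101256235 has a log2 fold change of -1.76 with a false discovery rate of 0.0167, LOC101264896 has -0.81 with 0.342, and LOC101246459 has 2.08 with 0.186. In the authors' deposited table for 6 h the same genes have 0.54, -1.45 and 0.56, with rates of 1, 0.261 and 1. The members were picked with results of these data known, so these rates are copied as a description and nothing is read from them.

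The 3 members had different patterns. Over the 8 libraries Pearson's r of log2 CPM was 0.08 between LOC101264896 and LOC101256235, -0.21 between LOC101264896 and LOC101246459, and -0.07 between LOC101256235 and LOC101246459. The points share library and depth, and the values are a description.

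The genes whose pattern over the 8 libraries was most like that of LOC101264896 were LOC101245843 (phospholipid-transporting ATPase 9, a lipid flippase by its description, r = 0.991), LOC101266343 (calcium uniporter protein 6, of mitochondria, r = 0.99) and LOC101251977 (a G-type lectin receptor kinase, r = 0.989). The search covered 25467 transcripts whose log2 CPM averaged 1 or more. Picked as the highest of so many over 8 libraries, these r values can be high by the picking alone. The levels of a gene picked this way follow those of the member by choice, and no test is made of them. LOC101266343 was at 26.4 and 35.6 CPM in control and 17.5 and 16.1 CPM in tunicamycin leaves at 2 h, and at 30.9 and 43 against 9.86 and 10.9 CPM at 6 h. For LOC101256235 they were LOC101264894 (glutaminyl-peptide cyclotransferase, r = 0.956), LOC101268873 (RHOMBOID-like protein 13, r = 0.954) and LOC101246818 (subunit 4 of the Mediator complex, r = 0.943), and their levels varied less: LOC101246818 lay between 11.3 and 16.4 CPM. For LOC101246459 they were LOC101255128 (root UVB sensitive 5, r = 0.988), LOC101247373 (an uncharacterized non-coding RNA, r = 0.981) and LOC101258384 (RPN13, a proteasome subunit that takes up ubiquitin, r = 0.976), each also higher in the deeper library of every group.

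None of the other 8 BAG genes was called for tunicamycin against control, at 2 h (adjusted p from 0.898 to 0.99) or at 6 h (adjusted p = 1 for each) in edgeR. None was called by DESeq2, and none had an unadjusted p under 0.05 in edgeR, as 7.25% of all transcripts did at 2 h and 4.07% at 6 h. Their log2 fold changes ran from -0.46 to 0.55 at 2 h and from -0.51 to 0.82 at 6 h. The medians were 0.01 and -0.06, beside 0.02 and 0.04 over all genes. At 2 h 4 of the 8 lay above zero, and at 6 h again 4. Since the members were taken out with results known, the choice itself can shape these values. The shares over all transcripts are therefore no fair measure for the 8.

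**Figure D3:**
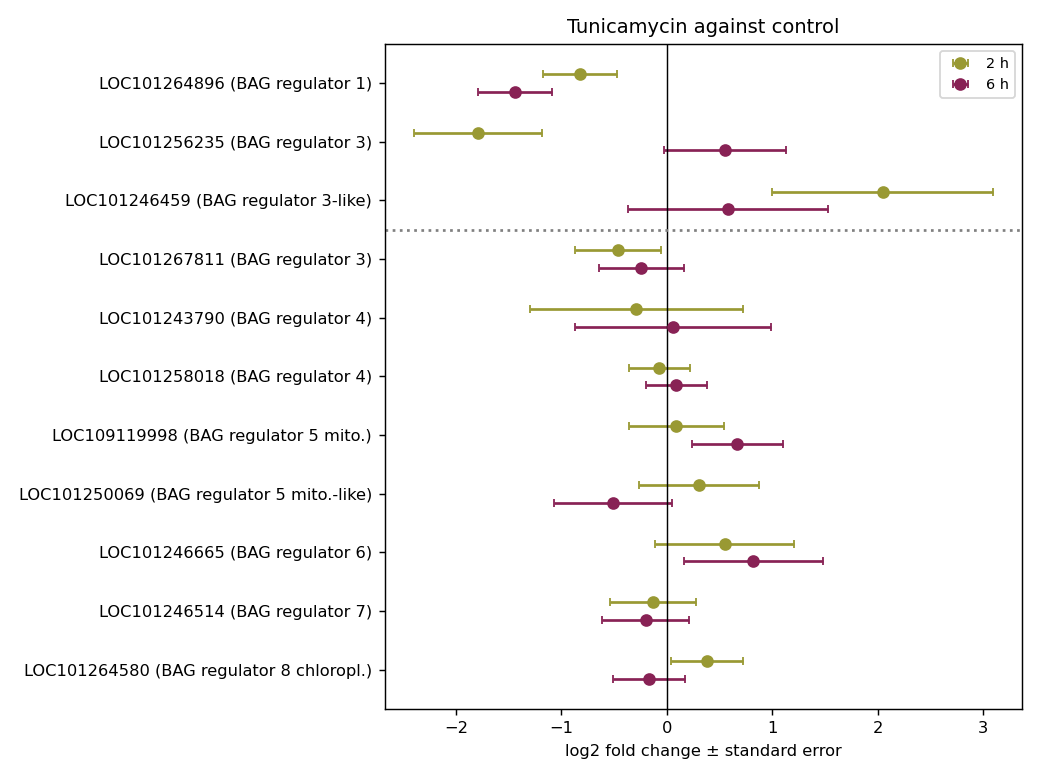
Log2 fold change of tunicamycin against control (horizontal axis, bars are 1 standard error) at 2 h and at 6 h for the 3 members above the dotted line and the other 8 BAG genes below it. LOC101264896 lay below zero at both times and the other 8 genes between -0.51 and 0.82.

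The relatives closest to the members by description were a second BAG regulator 3 and a pair of BAG regulator 4 genes. LOC101267811 (BAG regulator 3) was at 12.6 and 22.5 CPM in control and 11.9 and 14.1 CPM in tunicamycin leaves at 2 h (log2 -0.46 ± 0.41), and at 19.7 and 9.98 against 10.4 and 14.6 CPM at 6 h (-0.24 ± 0.40), with overlap at both times. Whether reads are shared between it and LOC101256235 is not known. LOC101258018 (BAG regulator 4, of a type that in Arabidopsis is tied to salt tolerance) was the most even of the 11 genes, between 19.2 and 23.8 CPM in all 8 libraries. LOC101243790, with the same description, had 4 to 78 counts per library and stood at 0.273 to 1.22 CPM, too few to show a difference (log2 -0.29 ± 1.01 at 2 h and 0.06 ± 0.93 at 6 h).

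LOC101246514 (BAG regulator 7, the type that Arabidopsis keeps in the ER) did not separate tunicamycin from control leaves. It stood at 226 and 238 CPM in control and 185 and 238 CPM in tunicamycin leaves at 2 h (log2 -0.13 ± 0.41), and at 317 and 169 against 164 and 257 CPM at 6 h (-0.20 ± 0.41). LOC101264580 (BAG regulator 8, chloroplastic by its description) gave 0.38 ± 0.34 and -0.17 ± 0.34.

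The mitochondrial type was present as a pair of genes. LOC109119998 (BAG regulator 5, mitochondrial) was at 8.11 and 19.8 CPM in tunicamycin leaves at 6 h, against 5.7 to 9.51 CPM in the other 6 libraries. The 19.8 CPM came from replicate 2, the library with 2.53% ribosomal RNA, whose part in it was not tested. LOC101250069 (mitochondrial-like) was at 3.05 to 4.5 CPM in the 4 libraries of 2 h and at 1.02 to 1.66 CPM in those of 6 h. Its log2 fold change from 2 h to 6 h was -1.79 ± 0.58 in tunicamycin leaves (adjusted p = 0.24 in edgeR) and -0.97 ± 0.57 in control leaves (adjusted p = 1). No library of 6 h reached those of 2 h in either arm. Within an arm this held for 19.3% of all transcripts in tunicamycin leaves and 16.1% in control leaves.

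**Figure D4:**
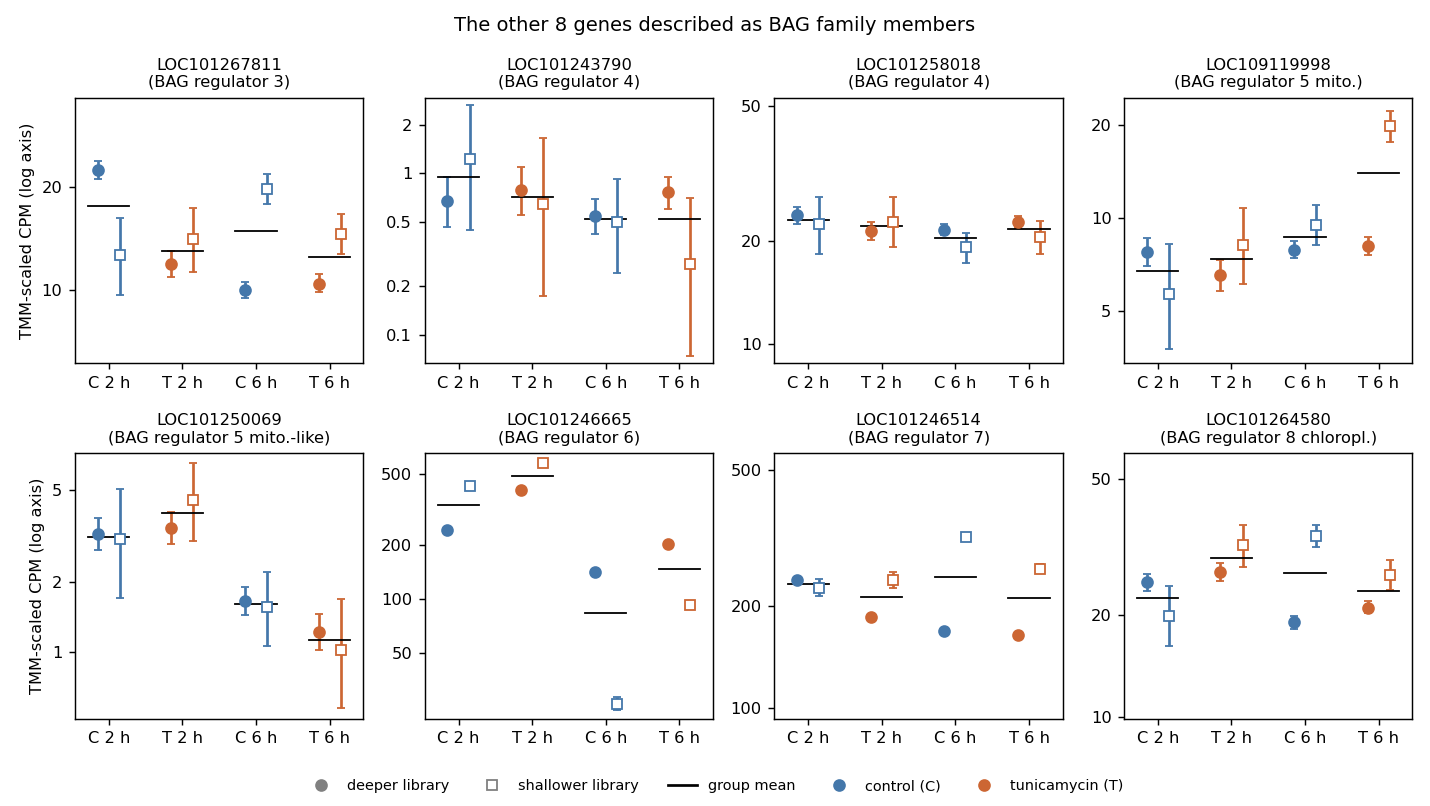
TMM-scaled CPM (log axis) of the other 8 BAG genes in each library, by group; bars are exact 95% Poisson intervals for counting error only and black lines are means of 2 libraries. LOC101258018 stayed between 19.2 and 23.8 CPM, while LOC101246665 went from 244 to 575 CPM at 2 h to 26 to 203 CPM at 6 h.

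Between the times, LOC101246665 (BAG regulator 6, which in Arabidopsis is induced by heat and is tied to resistance to fungi) showed the widest range of the 11 genes, 22.1-fold over the 8 libraries. It stood at 427 and 244 CPM in control leaves at 2 h and at 26 and 141 CPM at 6 h, and in tunicamycin leaves at 408 and 575 CPM at 2 h and at 203 and 93 CPM at 6 h. Every 6 h library was below every 2 h library. The share of all transcripts with this order over both arms was not counted. Within an arm it was 19.3% in tunicamycin leaves and 16.1% in control leaves. The log2 fold change was -2.0 ± 0.68 in control (adjusted p = 0.761 in edgeR) and -1.73 ± 0.68 in tunicamycin leaves (adjusted p = 0.375), so neither was called. In control leaves DESeq2 called it (adjusted p = 0.047). The log2 difference there was -0.79 between the deeper libraries and -4.03 between the shallower ones. Without control 6 h replicate 2 the edgeR value was -3.69, with only the library at 26 CPM left in that group. With 1 of the other 7 libraries left out the control value ran up to -1.29, without control 6 h replicate 1. In tunicamycin leaves the value ran from -2.41 to -1.27 over all leave-one-out fits. In the authors' deposited table for tunicamycin 6 h over tunicamycin 2 h it has a log2 fold change of -1.74 with a false discovery rate of 0.00998.

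In edgeR none of the 8 other BAG genes was called between the times. An unadjusted p under 0.05 was found for 2 in tunicamycin leaves, beside 10.6% of all transcripts, and for 1 in control leaves, beside 5.03%. DESeq2 called none in tunicamycin leaves and 1 in control leaves. Of the 8 genes, 3 lay with both 6 h libraries below both 2 h libraries in tunicamycin leaves (19.3% of all transcripts) and 4 in control leaves (16.1%). The tunicamycin comparisons and the time comparisons share libraries and are not independent.

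**Figure D5:**
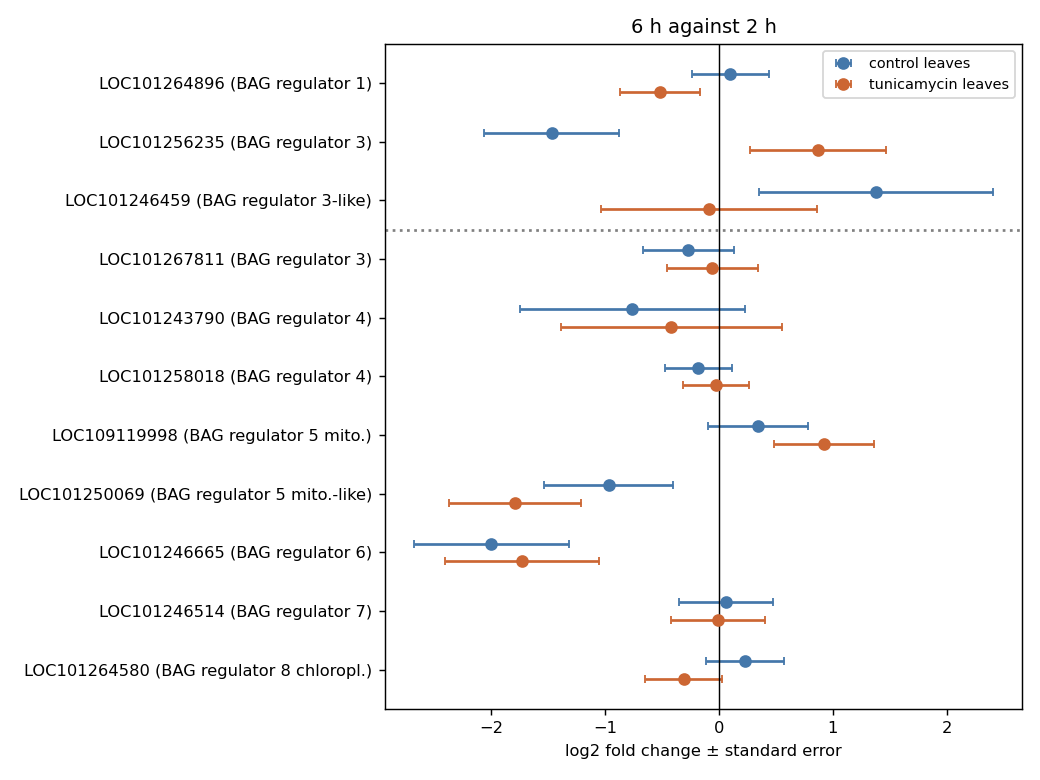
Log2 fold change of 6 h against 2 h (horizontal axis, bars are 1 standard error) in control and in tunicamycin leaves for the 3 members above the dotted line and the other 8 BAG genes below it. LOC101246665 was at -2.0 and -1.73, and LOC101256235 lay on opposite sides of zero in the 2 arms.

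Some of the chaperones that BAG proteins act on fell between the times. Of 14 cytosolic HSP70 family genes tested in edgeR, 4 were called lower at 6 h than at 2 h in tunicamycin leaves and 2 in control leaves. Over all transcripts 0.603% and 0.27% were called in these comparisons, in either direction. Of the 14 genes, 6 lay above zero in tunicamycin leaves (median log2 fold change -0.33) and 5 in control leaves (median -0.3). None was called with tunicamycin at 2 h (median log2 fold change 0.27, 1 called by DESeq2) or at 6 h (median -0.11, 0 called by DESeq2). hsc70.3 was at 53.7 and 45.5 CPM in control and 61.1 and 95.2 CPM in tunicamycin leaves at 2 h, and at 11.4 and 9.97 against 6.57 and 3 CPM at 6 h. These are the levels of the first of its 2 transcripts, whose log2 fold change from 2 h to 6 h was -3.98 ± 0.42 in tunicamycin leaves (adjusted p = 0.00038 in edgeR) and -2.22 ± 0.39 in control leaves (adjusted p = 0.0227). The other gene called in control leaves was LOC101255185 (heat shock 70 kDa protein 5), with a log2 fold change of -3.55 ± 0.55 there (adjusted p = 0.0139 in edgeR) and -3.67 ± 0.54 in tunicamycin leaves (adjusted p = 0.00648). In control leaves neither was called without control 2 h replicate 1, control 2 h replicate 2 or control 6 h replicate 2, and 1 of them was without control 6 h replicate 1. Leaf mesophyll markers were also lower at 6 h on median, but their sums overlapped between the times. Of 22 genes, 3 were called lower in edgeR in tunicamycin leaves (median log2 fold change -0.62) and 1 in control leaves (median -0.68). The sums were 35600 and 41900 CPM at 2 h against 22000 and 46900 CPM at 6 h in tunicamycin leaves. In control leaves they were 32600 and 28800 against 28400 and 37100 CPM. All 16 ribosomal RNA genes tested lay above zero in both arms (medians 2.47 and 0.85, none called). Their part in the falls of HSP70, J-domain and HSP90 genes was not tested.

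Of 63 genes matched by description to J-domain proteins, which load clients onto HSP70, 5 fell from 2 h to 6 h in tunicamycin leaves in edgeR. Among these 5, LOC109118688 is described as a pseudogene. Of the 63, 17 lay above zero there (median -0.27). LOC101259708 was at a log2 fold change of -2.34 ± 0.37, and the same gene fell in control leaves (-1.9 ± 0.37, adjusted p = 0.0487 in edgeR). In control leaves it was not called without either library of control 2 h, of tunicamycin 2 h or of control 6 h. Of the 5, 1 was called without either library of control 2 h, without either of tunicamycin 2 h and without either of tunicamycin 6 h. None was called with tunicamycin in edgeR, and DESeq2 called 3 at 2 h and 1 at 6 h. Of 6 HSP90 genes, 3 lay above zero between the times in tunicamycin leaves (median -0.06). HSP90 (log2 -2.65 ± 0.49, adjusted p = 0.0248 in edgeR) and LOC101264183 (-1.99 ± 0.41, adjusted p = 0.0442) fell there. Neither was called without either library of control 2 h, without either of tunicamycin 2 h or without tunicamycin 6 h replicate 1, and 1 of them was without tunicamycin 6 h replicate 2. Of 17 other exchange factors and co-chaperones (such as FES1, GrpE and p23) and of 23 heat stress transcription factors none was called in any comparison in edgeR; between the times DESeq2 called 1 and 3 in tunicamycin leaves, and 0 and 1 in control leaves.

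Of 26 ER stress marker genes tested (luminal-binding proteins, disulfide isomerases, calreticulins, calnexins and partners), none was called with tunicamycin in edgeR at 2 h (median log2 fold change -0.32, 7 genes above zero) or at 6 h (0.14, 21 above zero). DESeq2 called 0 at 2 h and 1 at 6 h. Over all genes 51.5% lay above zero at 2 h and 54.8% at 6 h. Of all transcripts edgeR called 0.0464% at 2 h and 0.322% at 6 h. With so few calls, none among 26 genes says little about their response.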

How the data were processed

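The deposited count table holds raw read counts per RefSeq transcript, 1 column per library, per the file headers. The authors' 3 deposited comparison tables hold log2 fold changes and log2 CPM, an F score, p-values and false discovery rates, per the file headers; the test behind them is not named. The submitters' processing notes name Trimmomatic 0.40. The labels' protocols name a directional library kit; no aligner, counter, strand setting or build is stated there.

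Counts were fitted in edgeR 4.0.16 (R 4.3.3) by robust quasi-likelihood with 1 mean per group over all 8 libraries, with 4 residual degrees of freedom, after filterByExpr (minimum count 10, minimum total 15) and TMM scaling. Each comparison was a two-sided contrast, with Benjamini-Hochberg adjustment over 34483 transcripts. A standard error is the absolute log2 fold change divided by the square root of F. Values within a depth are differences of log2 CPM with a prior count of 2. The procedure was run on simulated counts holding changes of known size. Its recovery of them is not given here, and nothing is read from it. DESeq2 1.42.0 was an alternative.

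The members and lists were chosen with earlier results of these data known. Lists are patterns on the descriptions; a gene counts as called if any of its transcripts is, and a list's median takes the transcript with the highest mean CPM of each gene. Named genes were the members, every other BAG gene, the 3 genes most like each member, and called or lowest-p genes of the lists; of the last, only those the text turns on are given. Replicates are biological per the labels, though the plants behind them are not described; Poisson intervals cover counting error only. Protein and promoter sequences were not used here.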

Additional observations from a re-analysis of the deposited data

Results flagged for a closer look

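Of the 11 BAG genes, 2 stood on opposite sides in a pair of groups. The share of all transcripts with such opposite orders was not counted, so nothing is read from this number. LOC101256235 had every 6 h library above the 2 h libraries in tunicamycin leaves and below them in control leaves, and its effect of tunicamycin differed between 6 h and 2 h by 2.34 ± 0.84 on the log2 scale. LOC101250069 had both tunicamycin libraries above the controls at 2 h and below them at 6 h, with a difference of -0.82 ± 0.80. The same held for the first of the 2 transcripts of the HSP70 gene hsc70.3 (-1.77 ± 0.53) and for the J-domain gene LOC101247706 (-0.89 ± 0.46). For the other hsc70.3 transcript the 2 h libraries overlapped, at 37.4 and 28.2 CPM in control and 31.7 and 61.7 CPM in tunicamycin leaves. The disulfide isomerase LOC101244079 had opposite orders in both ways (4.93 ± 1.41). It was at 16.2 CPM in tunicamycin 6 h replicate 1 and at 0.322 to 1.22 CPM in the other 7 libraries. In the heat stress factor gene LOC101250985 the 6 h against 2 h order was opposite in the 2 arms (2.09 ± 0.89). For the 5 transcripts other than the member LOC101256235, which is only described, edgeR called none of these differences; all were picked for opposite orders, the pattern that this compares. These genes were looked at because the text names them or their list.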

How the results depend on the processing

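Over 15 other fits of each two-group comparison and 14 of the difference between the times, the log2 fold change of LOC101264896 stayed below zero for tunicamycin against control, from -1.11 to -0.47 at 2 h and from -1.61 to -1.23 at 6 h. That of LOC101256235 ran from -2.79 to -1.33 at 2 h and from -0.14 to 1.75 at 6 h, and that of LOC101246459 from -1.43 to 3.10 and from -0.23 to 1.90. The 3 members carry no test, so no call of theirs is counted. None of the 8 other BAG genes was called in any comparison in the main edgeR fit. Without a low-count filter LOC101246665 was called between the times in both arms, where 1229 transcripts were called over all in tunicamycin leaves and 371 in control leaves. DESeq2 called it in control leaves, where it called 241 over all. With 1 library left out its log2 fold change between the times ran from -2.41 to -1.27 in tunicamycin leaves and from -3.69 to -1.29 in control leaves. The cause of these differences between fits was not tested. Whether same-numbered libraries belong together is not stated in the labels. Their deviations from the group means correlated from -0.18 to 0.17. These deviations also hold the gap in depth, whose direction differs between the arms, so they cannot decide it. With the replicate number as a block, none of the 8 other BAG genes was called in any comparison.

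Counts over all transcripts moved far more. With edgeR, DESeq2, no filter, transcripts summed to genes, the replicate block, the depth term and only the libraries of the comparison they were 16, 308, 679, 1, 3, 53 and 70 at 2 h, and 111, 396, 597, 38, 72, 161 and 0 at 6 h. From 2 h to 6 h they were 208, 878, 1229, 89, 169, 353 and 280 in tunicamycin leaves and 93, 241, 371, 43, 87, 125 and 76 in control leaves. With 1 library left out they ran from 0 to 183, 0 to 194, 65 to 613 and 23 to 252. For the difference between the times 93 were called without a filter, up to 38 with a library left out and 0 otherwise. Low counts limit LOC101246459 and LOC101243790.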
